A study of Mus musculus with 4 samples.

Results

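Sox10-positive cells of the parotid epithelium are the cells in which at least 1 RNA molecule of the transcription factor gene Sox10 was captured, and they are described here against the Sox10-negative cells of the same library. Of 1996 barcodes in that library, 1854 had at least 500 genes and at most 10% mitochondrial molecules. Sox10 was detected in 196 of them (10.6%, exact binomial 95% interval 9.21 to 12.1) and not in 1658. The whole series holds 14884 such cells. The cells were chosen by their Sox10 UMI count (UMIs, unique molecular identifiers, each mark 1 captured RNA molecule), so the Sox10 level itself is no finding, and every gene difference below comes from the same split of cells and is given as a description.

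The study profiled single cells of the epithelium and of the mesenchyme of embryonic parotid and submandibular glands, from ICR mice at embryonic day 12, about 10 glands of each kind pooled. Epithelium was freed from mesenchyme with Dispase II, both were dissociated in the cold with a Bacillus licheniformis protease, and cells were captured on the 10x Chromium droplet system. There were 4 libraries, 1 for each gland and tissue, with no genotype or treatment to compare. With 1 library per group there is no replicate, so no difference was tested, and the intervals given are 95% intervals of counting error only.

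A salivary gland starts as a thickening of the oral epithelium that grows into mesenchyme as a bud on a stalk, and the tips of the later branches are called end buds. Fibroblast growth factors from the mesenchyme act on receptors in the bud and induce the ETS-family factors Etv4 and Etv5 together with feedback inhibitors of the Sprouty and Dusp families. SOX10, which also marks the neural crest, is known in salivary epithelium as a factor of distal progenitors, whereas the keratins Krt5, Krt14, Krt15 and Krt19 mark basal and ductal cells.

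The genes proposed with Sox10 as markers of these cells were Igfbp3, a secreted binder of insulin-like growth factors, Lmcd1, a LIM-domain cofactor of transcription, and Ngfr, the low-affinity neurotrophin receptor. In GRCm38 the gene of Sox10 lies at chr15:79154908-79165240 (minus strand), Igfbp3 at chr11:7206086-7213923 (minus strand), Lmcd1 at chr6:112273758-112330425 (plus strand) and Ngfr at chr11:95568818-95587735 (minus strand). The 250 bases before the RefSeq start of each marker gene (GRCm38.p6) are shown because the 3 genes were high in the same cells. Igfbp3 is printed from chr11:7213924-7214173 (minus strand), Lmcd1 from chr6:112273508-112273757 (plus strand) and Ngfr from chr11:95587699-95587948 (minus strand, 37 bases from the GENCODE start). Capitals mark the ETS-type word CCGGAA or its reverse complement.
Igfbp3: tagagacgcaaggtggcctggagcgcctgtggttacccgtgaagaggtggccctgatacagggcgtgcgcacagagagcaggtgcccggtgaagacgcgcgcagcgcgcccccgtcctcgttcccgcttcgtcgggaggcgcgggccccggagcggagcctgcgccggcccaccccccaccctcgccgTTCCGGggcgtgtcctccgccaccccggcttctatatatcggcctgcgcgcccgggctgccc
Lmcd1: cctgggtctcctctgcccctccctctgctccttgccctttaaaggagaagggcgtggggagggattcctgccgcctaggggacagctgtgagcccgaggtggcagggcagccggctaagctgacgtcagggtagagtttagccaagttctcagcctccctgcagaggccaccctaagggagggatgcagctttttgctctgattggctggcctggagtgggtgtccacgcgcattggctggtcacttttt
Ngfr: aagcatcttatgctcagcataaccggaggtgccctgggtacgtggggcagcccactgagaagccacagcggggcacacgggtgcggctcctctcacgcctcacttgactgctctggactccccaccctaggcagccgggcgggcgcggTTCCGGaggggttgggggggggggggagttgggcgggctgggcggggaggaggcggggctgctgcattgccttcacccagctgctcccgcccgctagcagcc
The word lay at -62 in Igfbp3 and -102 in Ngfr, and these letters are not in the Lmcd1 window. The SOX-type words ACAATG and ACAAAG, searched on both strands, are in none of the 3 windows. Among the genes at least 2-fold higher in Sox10-positive cells, 41 of 62 had a promoter in the table, with 55 start sites. Of those, 7 (12.7%) held the ETS-type word and 12 (21.8%) a SOX-type word, against 26.8% and 18.4% of the 2913 promoters of genes of at least 50 CPM (CPM, counts scaled to a fixed total) and 12.03% and 25.2% of all 32851 promoters. A match is a description of the letters and no evidence of binding.

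Sox10-positive cells were deeper than the rest. The median was 8689.5 UMIs per positive cell and 6701 per negative cell, and the median mitochondrial share was 4.45% against 4.80%. With every cell reduced to 3000 UMIs, which left out 149 shallower cells (2 of them positive), 91 of 1705 cells (5.34%, 4.32 to 6.51) still had a Sox10 UMI. In the parotid mesenchyme library, whose cells had a median of 5737 UMIs against 6931.5 in the epithelium, the share was 27 of 4421 (0.611%, 0.403 to 0.887). The submandibular epithelium held 930 positive cells of 3767 (24.7%, or 8.07% at 3000 UMIs). Parotid epithelium shared 12, 14 and 9 barcodes with the parotid mesenchyme, submandibular epithelium and submandibular mesenchyme libraries, and 1, 1 and 0 of those were Sox10-positive. Leaving the shared barcodes out changed the counts of genes below to 59 higher and 69 lower.

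Most positive cells were at the detection limit: 131 had 1 Sox10 UMI, 46 had 2, 12 had 3, and 7 had 4 to 6. When the library was clustered without Sox10, 178 of the 196 (90.8%) nevertheless fell into 2 of 12 clusters. The larger held 113 positive cells of 251 (45.0%, 38.8 to 51.4) and the smaller 65 of 125 (52.0%, 42.9 to 61.0). Igfbp3, Lmcd1 and Ngfr were each detected in at least 25% of the cells of both, so both are called end bud-like. The name rests on these 3 markers, which were given with Sox10 and took part in the clustering, and not on position in the tissue. The other 18 positive cells were spread over 5 clusters, in which the share was at most 4.40%. That highest share belonged to an unnamed cluster of 91 cells with a median of 2343 UMIs and 0.0966% mitochondrial UMIs. The remaining 5 clusters had no positive cell among 570, which allows a share of up to 0.526% if 3 cells are taken as the limit of a count of 0.

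**Figure D1:**
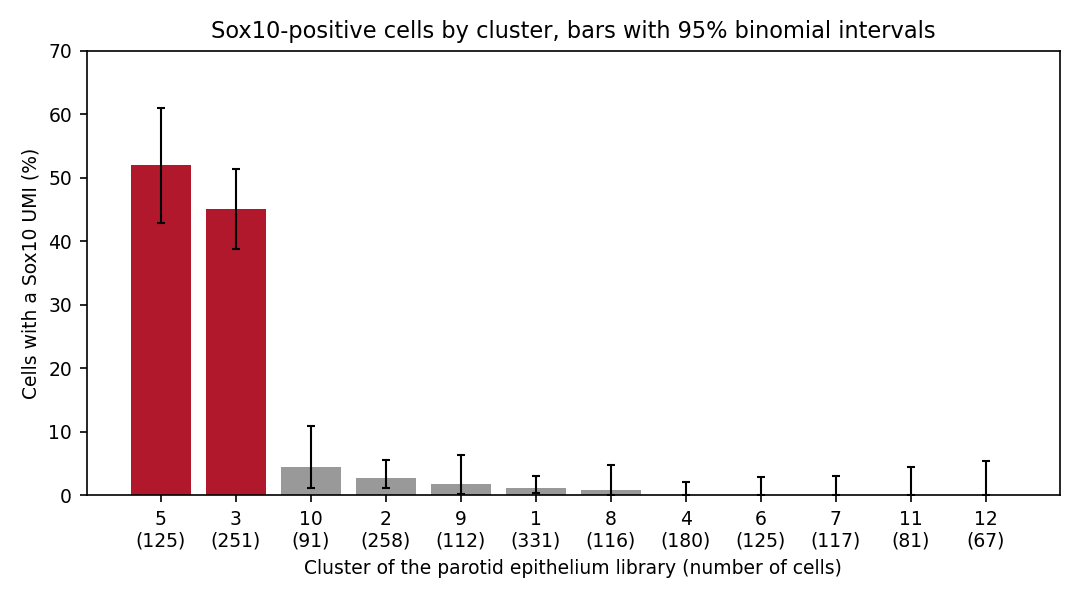
Share of cells with a Sox10 UMI (%, bars with exact binomial 95% intervals) in each of the 12 clusters of the parotid epithelium library, with the number of cells in parentheses. The end bud-like clusters (red) reach 45.0% and 52.0%, and all others lie at or below 4.40%.

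UMIs were summed over the cells of each class and scaled to the same total for both classes (CPM). Of 3014 genes with at least 50 CPM in the higher class, 62 (2.06%) were at least 2-fold higher in the Sox10-positive cells and 67 (2.22%) at least 2-fold lower, Sox10 itself left out. Ngfr was at 131 CPM in positive and 13.3 CPM in negative cells (9.84-fold higher, 8.01 to 12.1), the highest ratio of the 62. Lmcd1 was at 114 against 17.3 CPM (6.59-fold, 5.41 to 8.03). Igfbp3 was at 1219 against 195 CPM (6.25-fold, 5.90 to 6.63). All 3 marker genes named with the label were high in the Sox10-positive class. They were chosen with earlier results of these data known, so these levels are a description and no separate support for the name. The parotid mesenchyme library also held Igfbp3 at 245 CPM, Lmcd1 at 82.0 CPM and Ngfr at 18.3 CPM. Lmcd1 was thus the marker whose mesenchymal level came nearest to its level in the Sox10-positive cells.

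**Figure D2:**
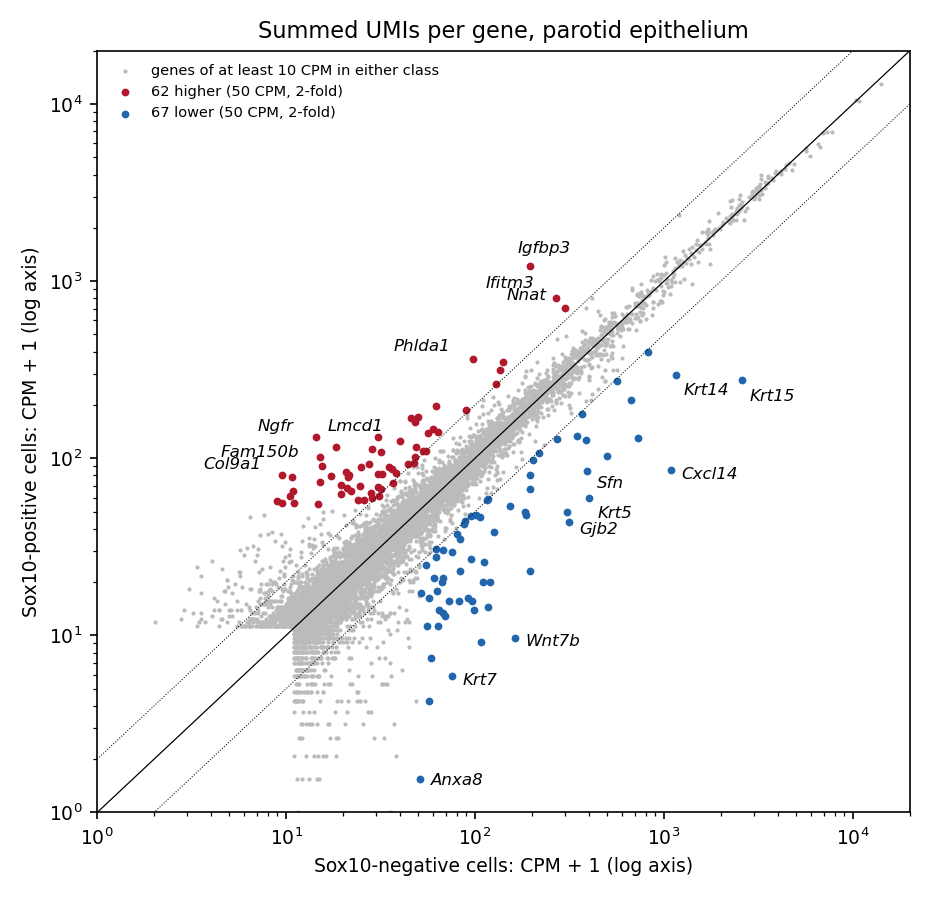
Level of each gene in Sox10-negative (x) and Sox10-positive (y) parotid epithelium cells, as CPM + 1 on log axes, with lines at equal and at 2-fold levels. The 62 higher genes (red) include Igfbp3, Ngfr and Lmcd1, and the 67 lower genes (blue) include Krt15, Cxcl14, Wnt7b and Anxa8.

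The genes with the highest ratios came from several roles. Col9a1, a chain of the cartilage-type collagen IX, was at 79.0 against 8.53 CPM (9.26-fold, 7.13 to 12.1). Its partner chain gene Col9a3 was at 77.9 against 16.2 CPM (4.81-fold), and Col2a1, the gene of collagen II, at 91.5 against 26.5 CPM (3.46-fold). Genes of the cartilage lineage proper, Acan and Matn1, had no UMI in the positive cells. Atp1b1, a subunit of the sodium pump, was at 77.4 against 9.73 CPM (7.95-fold). Fam150b, which encodes a ligand of the receptors ALK and LTK, was at 101 against 14.2 CPM (7.14-fold), while the receptor genes Alk and Ltk had no UMI in these cells.

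Several were transcription factors of cranial ectoderm. The forkhead gene Foxc1 was at 54.1 against 13.7 CPM (3.94-fold, 3.04 to 5.09), and the paired-box gene Pax9 at 61.7 against 18.5 CPM (3.33-fold). Sox9, a close relative of Sox10, was at 138 against 55.3 CPM (2.50-fold, 2.15 to 2.89). Of the 11 oral ectoderm factors that reached 50 CPM, 2 were called higher, Pax9 among them, and 1 lower. This and each list count below stands beside 2.06% higher and 2.22% lower among all 3014 genes of at least 50 CPM. In every such count, a gene could reach 50 CPM through its higher class alone. The lower gene was Tfap2b, an AP-2 family gene, at 48.7 against 183 CPM.

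The remaining genes among the 12 highest serve metabolism and cell surface modification. Ak1, an adenylate kinase, was 6.56-fold higher, and Hs3st1, an enzyme that sulfates heparan sulfate, 6.47-fold. Shisa2, of a family that retains FGF and WNT receptors in the endoplasmic reticulum, was 6.34-fold higher, Dact2, a partner of Dishevelled, 6.19-fold, and Gne, of sialic acid synthesis, 5.43-fold. These 5 genes lay between 54.7 and 89.8 CPM in the positive cells.

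Genes of the FGF response were high in the Sox10-positive cells. Of the 13 on the list, 8 reached 50 CPM, all 8 had a ratio above 1, and 7 were called higher against 2.06% of all genes, with a median log2 ratio of 1.73 against 0.02 over all 5618 genes of at least 20 CPM. Of the 8, Etv4, Etv5, Il17rd and Spry1 reached 50 CPM in the positive class only. The minimum took them in through the class where they were high, so these counts are partly set by it. Etv4 was at 131 against 29.5 CPM (4.43-fold, 3.75 to 5.24) and Etv5 at 160 against 47.1 CPM (3.39-fold, 2.93 to 3.91). The feedback inhibitors followed, with Il17rd at 82.8 against 19.8 CPM, Dusp6 at 197 against 60.9 CPM, Spry1 at 100.1 against 47.2 CPM and Spry2 at 350 against 139 CPM. Phlda1, a further gene of the list, was at 361 against 96.8 CPM (3.73-fold). The receptor side was mixed. Fgfr1 was at 56.8 against 24.9 CPM, and Flrt2, which encodes a membrane protein that binds FGF receptors, at 107 against 30.9 CPM, but Fgfr2, the receptor gene of the bud, was lower, at 16.8 against 61.8 CPM (3.68-fold lower, 2.57 to 5.46). The Fgfr2 gene model overlaps many other genes on its strand, so that value is uncertain. The ligand gene Fgf8 was at 20.0 against 39.7 CPM.

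The list of genes known from salivary end buds had 7 of 17 members at 50 CPM or more, of which 6 were called higher (Sox9, Etv4, Etv5, Spry1, Spry2 and Foxc1) and 1 lower (Fgfr2). Etv4, Etv5, Spry1, Spry2 and Fgfr2 were already counted among the FGF genes above, so the 2 lists are not separate evidence. Mycn, a proto-oncogene of progenitors, was at 9.74 against 37.6 CPM. Genes of mature secretory acini were not detected: all 10 salivary secretory genes in the files, among them Aqp5, Bpifa2 and Smgc, had no UMI in the 196 cells, which allows up to 1.62 CPM for each gene and a UMI in up to 1.53% of the cells if 3 counts are taken as the limit of a count of 0. Myc, in contrast to Mycn and to Mycl (20.0 against 66.4 CPM), was at 80.6 against 31.3 CPM (2.57-fold higher).

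Keratins and other genes of the basal and progenitor layer were low in the Sox10-positive cells. All 6 genes of the list that reached 50 CPM were called lower, against 2.22% of all genes, and the median log2 ratio of its 7 genes of at least 20 CPM was -1.96. Krt15 was at 275 against 2572 CPM (9.34-fold lower, 8.55 to 10.2), Krt5 at 59.0 against 402 CPM (6.82-fold lower), Krt17 at 18.9 against 119 CPM and Krt14 at 295 against 1153 CPM (3.90-fold lower, 3.58 to 4.26). Trp63, the master regulator of stratified epithelium, was at 43.3 against 87.1 CPM, and Perp, a desmosome component, at 133 against 346 CPM.

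Duct and periderm genes were also low, with exceptions. The duct keratins Krt7 (4.87 against 74.8 CPM) and Krt19 (13.5 against 116 CPM) were 15.4-fold and 8.60-fold lower, whereas Krt8, a keratin of simple epithelium, was 2.40-fold higher at 115 against 47.8 CPM. Sfn, an epidermal adaptor protein gene, was at 83.3 against 390 CPM (4.68-fold lower). Grhl3 was at 2.16 against 24.6 CPM, and Gabrp had no UMI in the positive cells against 34.6 CPM in the rest, at least 17.2-fold lower. The Gabrp level of the rest came mostly from 1 cluster of 81 cells without a positive cell. Gabrp was at 728 CPM in that cluster and at 1.30 CPM in all other cells, so its near absence was not particular to Sox10-positive cells. The gap junction genes Gjb2 (42.8 against 312 CPM) and Gjb6 (13.0 against 97.2 CPM) were 7.29-fold and 7.48-fold lower. Part of their level in the rest came from clusters without a positive cell. In such a cluster of 180 cells they were at 1284 and 400 CPM, against 194 and 60.5 CPM in all other cells. In another such cluster, of 67 cells, they were at 993 and 372 CPM.

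Among the 67 lower genes the lowest ratio belonged to Anxa8, an annexin, at 0.541 against 50.4 CPM (93.2-fold lower). It rests on 1 UMI in the positive cells, so its interval runs from 16.7 to 3688. Skap2, an adaptor of Src-family signalling, was at 3.25 against 56.3 CPM, Slc2a3, a glucose transporter, at 8.12 against 106 CPM, and Lmo1, a LIM-only transcription cofactor, at 22.2 against 193 CPM. Skap2 was at 213 CPM in a cluster of 180 cells without a positive cell and at 35.9 CPM in all other cells. Lmo1 was at 674 CPM in a cluster of 117 cells without a positive cell and at 132 CPM in all other cells. Dapl1 was at 6.49 against 57.3 CPM. The chemokine gene Cxcl14 was at 84.4 against 1086 CPM (12.9-fold lower, 11.0 to 15.2), so its remaining level in positive cells was still above the minimum of the size rule.

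WNT ligand genes were low as well. Of the 5 ligand and antagonist genes that reached 50 CPM, 4 were called lower and 1 higher. Wnt7b was at 8.66 against 163 CPM (18.8-fold lower, 11.5 to 32.9), Wnt6 at 102 against 501 CPM and Wnt4 at 14.6 against 81.4 CPM. The antagonist genes parted: Sostdc1, which blocks WNT and BMP signals, was at 48.7 against 305 CPM, and Sfrp1, which binds WNT ligands, at 171 against 49.1 CPM (3.47-fold higher). No WNT response gene reached 50 CPM, so none could be called. Among the 5 of at least 20 CPM, Lef1 was at 10.8 against 24.2 CPM, Lgr4 at 10.8 against 38.2 CPM, Dkk4 at 25.4 against 9.64 CPM and Bambi at 29.8 against 15.6 CPM.

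The neurotrophin genes split by role. The receptor gene Ngfr was high, whereas the ligand genes Ntf3 (29.8 against 61.4 CPM) and Ntf5 (28.7 against 49.2 CPM) were lower, and the signalling receptor gene Ntrk2 had no UMI in the positive cells. The insulin-like growth factor binders also parted, with Igfbp3 and Igfbp4 (187 against 88.6 CPM) called higher, Igfbp5 (176 against 368 CPM) called lower, and Igfbp2 at 272 against 485 CPM. Of the retinoic acid genes, Cyp26a1, whose enzyme degrades retinoic acid, was at 86.0 against 35.4 CPM (2.43-fold higher). Dhrs3, of the same list, was at 96.3 against 52.7 CPM and missed the 2-fold limit.

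Other signalling lists held few genes that could be called. Among 4 BMP and TGF-beta genes of at least 50 CPM, Id1 was called lower (127 against 269 CPM), while Id2 was at 221 against 123 CPM. Of 2 such Notch genes, Nrarp was called lower (10.3 against 54.6 CPM), and Hey1, a target below the minimum, was at 36.3 against 14.3 CPM. Only 2 hedgehog and 2 basement membrane genes reached 50 CPM, and none of these was called. Below that minimum, the hedgehog receptor gene Ptch1 was at 11.4 against 25.7 CPM and the basement membrane gene Fras1 at 11.4 against 42.4 CPM. None of 17 S phase genes (median log2 ratio -0.12 over the 19 of at least 20 CPM) and none of 14 G2/M genes (0.23 over 20) was called.

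**Figure D3:**
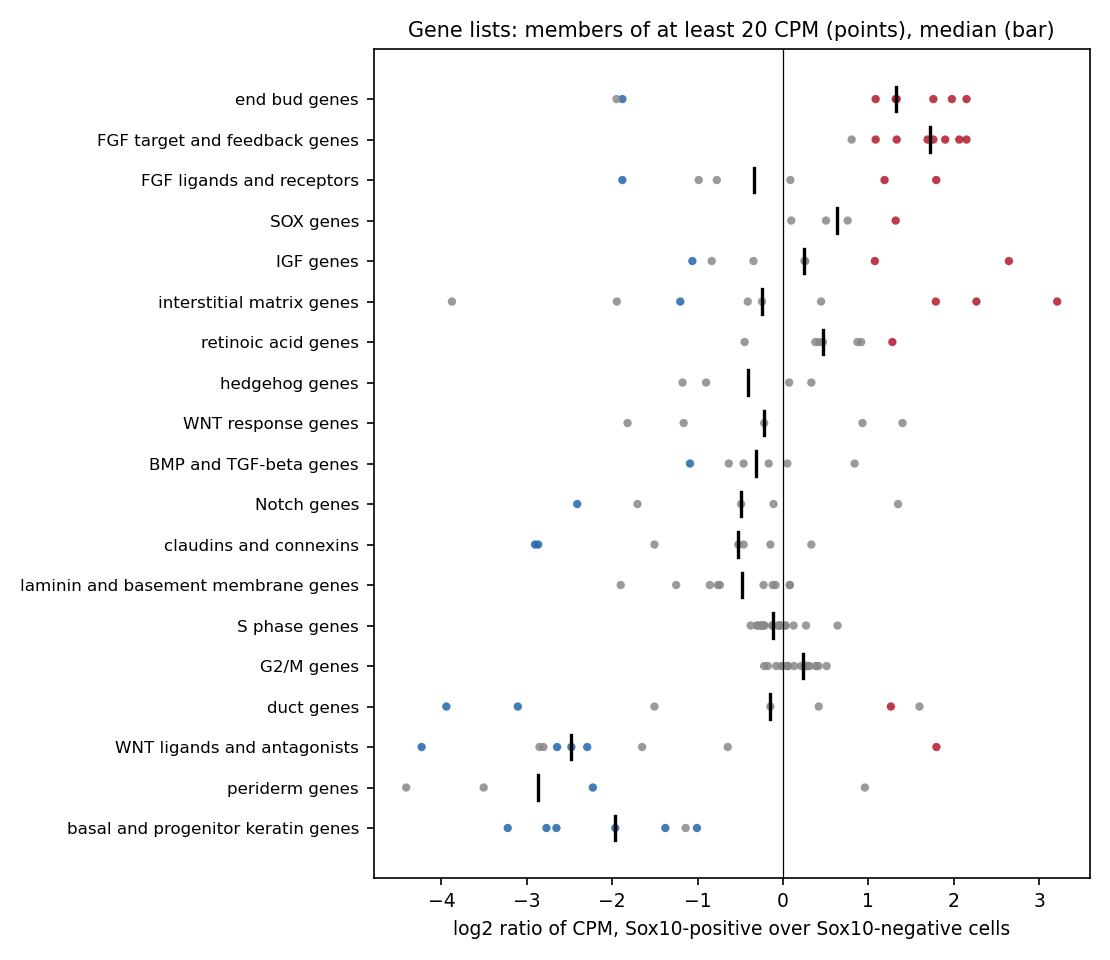
Log2 ratio of CPM, Sox10-positive over Sox10-negative cells, for list members of at least 20 CPM (points: red, called higher; blue, called lower; grey, neither) and the median of each list (bar). FGF target genes lie to the right with a median of 1.73, and basal keratin genes to the left with a median of -1.96.

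Cells just outside the rule resembled those inside it when they lay in the end bud-like clusters. The 1854 cells were set in 4 classes: 1460 cells with no Sox10 UMI in other clusters (median 6607.5 UMIs), 198 with none in the end bud-like clusters (7631.5), 131 with 1 (8258) and 65 with 2 or more (9765). Ngfr was at 1.28, 91.0, 130 and 133 CPM in that order. Lmcd1 was at 1.58, 119, 110 and 121 CPM. Igfbp3 was at 44.4, 1166, 1209 and 1235 CPM, with overlapping intervals in the last 3 classes. The step for these genes lay between the first class and the other 3.

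Etv4 was at 14.8, 125, 132 and 130 CPM and Phlda1 at 51.2, 391, 344 and 390 CPM over the same classes. Sox9 was at 38.8, 162, 143 and 129 CPM, so it was no higher in cells with more Sox10 UMIs. Krt15 was at 2920, 324, 299.8 and 233 CPM, and Krt14 at 1298, 211, 350 and 201 CPM, with cells of 1 Sox10 UMI above both neighbouring classes. Wnt7b was at 186, 9.55, 10.2 and 5.91 CPM. Unlike the cells with none, the cells with 1 Sox10 UMI or more were not split by cluster here. Among all positive cells, Krt14 was at 231 CPM inside the end bud-like clusters and at 1087 CPM outside them. The clusters were built from these same genes, so the likeness between their Sox10-negative and Sox10-positive cells is a description and cannot be told apart from the clustering.

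**Figure D4:**
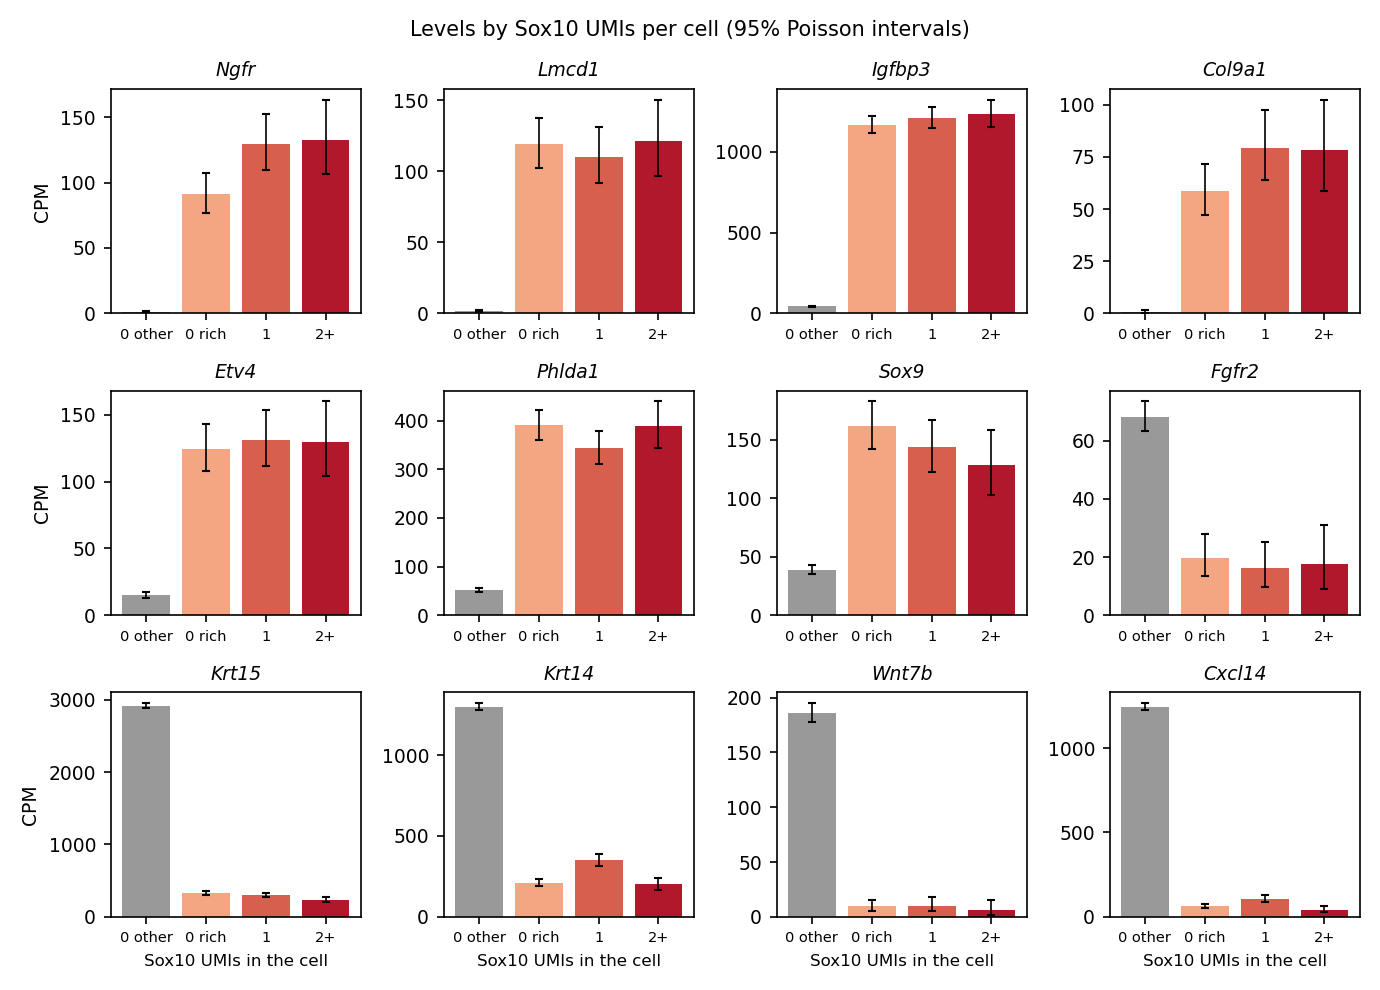
Levels (CPM, bars with Poisson 95% intervals) of 12 genes in cells with no Sox10 UMI outside (0 other) and inside (0 rich) the end bud-like clusters, with 1 Sox10 UMI and with 2 or more (2+). For the first 7 genes the grey bar is the lowest, for Fgfr2, Krt15, Krt14, Wnt7b and Cxcl14 it is the highest. Krt14 and Cxcl14 are higher in cells with 1 Sox10 UMI (350 and 108 CPM) than in the classes on either side (211 and 64.3, 201 and 42.8 CPM). The classes 1 and 2+ are not split by cluster. Over all positive cells, Krt14 and Cxcl14 are at 231 and 71.4 CPM inside the end bud-like clusters, and at 1087 and 243 CPM outside.

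Within the end bud-like clusters alone, 178 positive against 198 negative cells, 1 gene was called higher and none lower. That gene, named after its value was seen, was Loxl2, an enzyme that crosslinks matrix collagens, at 67.3 against 33.1 CPM (2.03-fold, 1.45 to 2.88). It was not among the 62. The median ratio of the 62 genes there was 1.09. Set against the negative cells outside these clusters instead, the counts were 78 higher and 87 lower, including all 62 and all 67. Cells with 2 or more Sox10 UMIs were further from the negative cells than cells with 1 in 39 of the 62 and 50 of the 67 genes. The differences were small, with a median ratio of 2 or more over 1 of 1.06 for the 62 and 0.839 for the 67. No such share was computed over all genes, and these classes also differed in depth (medians 9765 and 8258 UMIs). A trend with Sox10 UMI number was therefore not tested.

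Markers were detected together in many but not all of the cells. At full depth Igfbp3 was detected in 87.2% of Sox10-positive cells, Lmcd1 in 53.6% and Ngfr in 51.0%. All 3 were found in 59 of 196 cells (30.1%, 23.8 to 37.0) and none in 17 (8.67%, 5.13 to 13.5), against 2.23% and 76.8% of Sox10-negative cells. Depth enters these shares, and free RNA in the droplets was not estimated, so a share of cells with a UMI is not a share of cells expressing the gene. At 3000 UMIs per cell, Igfbp3 was detected in 80.4% of 194 positive and 16.3% of 1511 negative cells, Lmcd1 in 25.3% and 3.57%, and Ngfr in 31.4% and 3.18%. At that depth Etv4 or Etv5 was detected in 62.4% against 16.9%, and Krt5 or Krt14 in 41.2% against 88.2%. Of the 194 positive cells, 46.9% kept a Sox10 UMI.

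The positive cells differed among themselves by cluster and cycle genes. The 65 positive cells of the smaller end bud-like cluster had Ube2c at 1207 CPM, against 42.5 CPM in the 113 of the larger. Ccnb1 was at 543 against 34.2 CPM and Cdc20 at 411 against 44.6 CPM, all 3 being genes of mitosis. Marker levels differed by less, with Igfbp3 at 1178 and 1400.1 CPM, Ngfr at 118 and 155 CPM and Lmcd1 at 108 and 132 CPM. These cells also differed in depth, with medians of 11428 and 7927 UMIs, and cycle genes took part in the clustering. Over all positive cells the summed S phase genes were at 2011 CPM against 2207 CPM in negative cells, and the G2/M genes at 3481 against 3089 CPM.

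For Igfbp3, Ngfr, Lmcd1, Krt15, Krt14 and Sfn, the 18 positive cells outside those clusters had levels between 2 other classes. These were the 178 positive cells inside and the 1460 Sox10-negative cells outside. These 6 genes are a selection, and not every named gene lay between. Sox9 was at 150 CPM in the 18, against 137 and 38.8 CPM, and Hey1 had no UMI, against 39.2 and 8.57 CPM. Igfbp3 was at 186 CPM in them, against 1303 CPM in the 178 and 44.4 CPM in the 1460. Ngfr was at 35.7 CPM, against 139 and 1.28 CPM, and Lmcd1 at 28.6 CPM, against 121 and 1.58 CPM. Krt15 was at 808 CPM, against 232 and 2920 CPM, so it too lay well apart from either class. Krt14 (1087 CPM, against 231 and 1298 CPM) and Sfn (429 CPM, against 55.0 and 442 CPM) were near the cells outside. With 139883 UMIs in all, and 5 of Ngfr and 4 of Lmcd1, these 18 cells give coarse levels.

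Since Sox10 also marks neural crest, glia and melanoblasts, markers of those cells were read in the 196. The 8 neural crest and glial markers summed to 5.95 CPM (4.78 CPM in negative cells), Foxd3 and Cdh19 were among those at 0, and no cell held 3 or more. In the submandibular mesenchyme library, 71 of 97 Sox10-positive cells held 3 or more of them, at 1134 CPM. The 6 melanoblast markers summed to 0.541 CPM, with Dct, Mitf, Tyr, Tyrp1 and Mlana at 0. The 9 mesenchymal markers summed to 14.6 CPM against 32.1 CPM, with Col3a1, Pdgfra, Pdgfrb, Lum and Prrx1 at 0. Epcam or Cdh1, the epithelial adhesion genes, was detected in 95.9% of positive and 82.1% of negative cells. The epithelial markers summed to 1149.9 against 829 CPM.

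The submandibular epithelium was read by the same rule, side by side and without a test. There 8 of 2922 genes (0.274%) were at least 2-fold higher in Sox10-positive cells and 36 (1.23%) at least 2-fold lower. Col9a1, Hs3st1, Ngfr, Selm and Shisa2 were called higher in both glands (8.06% of the parotid and 62.5% of the submandibular list), and 19 genes were called lower in both (28.4% and 52.8%). The 62 parotid genes had a median ratio of 3.20 in parotid and 1.35 in submandibular epithelium. Of them, 43 were above 1 in the submandibular gland with an interval off 1, and 11 were below 1 in the same sense. At this depth such intervals are narrow: over the 3014 genes of at least 50 CPM in parotid, 29.9% were above 1 and 30.2% below 1 by the same measure. The 67 lower genes were lower by medians of 3.68-fold and 2.52-fold, and 60 were below 1 with an interval off 1 in the submandibular gland.

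The smaller submandibular ratios went with different levels in either class. Ngfr was at 98.8 and 43.8 CPM there, so the negative cells were above the 13.3 CPM of parotid negative cells. Igfbp3 was at 90.3 and 54.5 CPM, far below the parotid positive level of 1219 CPM. Etv4 was at 153 and 91.1 CPM and Sox9 at 127 and 98.9 CPM. Krt15 was at 319 and 2289 CPM, beside 275 and 2572 CPM in parotid, while Cxcl14 was at 0.684 and 1.24 CPM. The submandibular cells were deeper, with medians of 13358.5 UMIs per positive and 8262 per negative cell, and gland and library cannot be told apart.

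**Figure D5:**
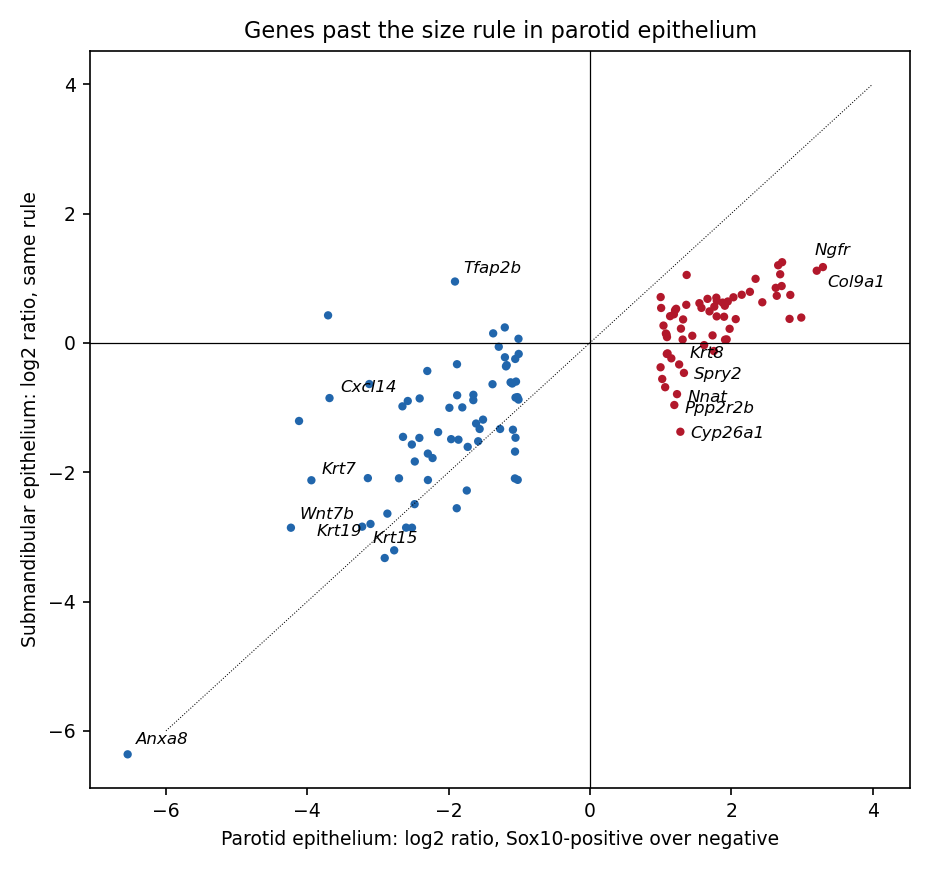
Log2 ratio, Sox10-positive over Sox10-negative cells, in parotid (x) and submandibular (y) epithelium for the 62 higher (red) and 67 lower (blue) parotid genes, with a dotted line at equality. Most red points lie below the line, at a median ratio of 3.20 in parotid against 1.35, and Cyp26a1 and Tfap2b lie on the other side of 0 in the submandibular gland.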

How the data were processed

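The deposited values are whole-number UMI counts per gene and cell barcode, not normalized, made by the authors with Cell Ranger 2.1.1 on mm10, per the submitters' processing notes. The files hold 27998 genes. Strand handling in counting is not given in the sources used here, so genes that overlap another, such as Lmcd1, Atp1b1, Fam150b, Anxa8, Wnt7b, Krt7, Lmo1 and Fgfr2, may hold reads of the partner. Barcodes with under 500 genes or over 10% mitochondrial UMIs were left out (142 in parotid epithelium). No barcode was removed as a doublet, and an alternative left out the 30 highest Scrublet scores (3 of them Sox10-positive).

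Counts were summed per class and scaled to CPM. Intervals are at 95% and cover counting error only: exact Poisson for CPM, Clopper-Pearson for shares and, for ratios, a binomial interval conditional on the total count. Where a count is 0, the limit the text gives is 3 counts over the total, a lower limit than the upper end of the 2-sided interval. A class without a UMI was set at 3 UMIs for its ratio, and the text then gives the interval's limit. The size rule was 50 CPM in the higher class and a ratio of 2. Ratios, their intervals and calls were tested on simulated class totals with Poisson spread only, so summing over cells was not tested. Clusters came from scanpy 1.11.5 (Leiden, igraph 0.11.9) on 2000 variable genes without Sox10, 30 components, 15 neighbours and resolution 0.8. TMM factors came from edgeR 4.0.16. Parotid epithelium held 14004908 UMIs. Coordinates are GENCODE vM21 and promoters RefSeq.

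Members, markers and 32 gene lists were chosen with earlier results of these data known. Named genes were the 12 highest and 12 lowest ratios and up to 4 per list, leaving out haemoglobin, mitochondrial, ribosomal, sex-linked and immediate early genes, unnamed models and genes over 10 times higher in parotid mesenchyme. Some genes the rule takes are not reported here. Dusp6, Spry1, Spry2, Col2a1, Trp63, Perp, Krt8, Wnt4, Wnt6 and Sfrp1, the genes listed at 0, those shared by both glands and the overlapping genes were named after their values were seen.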

Additional observations from a re-analysis of the deposited data

Results flagged for a closer look

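Of the genes past the size rule in parotid epithelium, 13 had a ratio on the other side of 1 in submandibular epithelium, with a counting interval off 1 in both. They were 11 of the 62 higher and 2 of the 67 lower genes. Over all 3014 genes of at least 50 CPM in parotid, 30.2% were below 1 and 29.9% above 1 in submandibular epithelium by that measure. Such a ratio was thus no rarer among genes at large. With 1 library per gland the difference was not tested, and the 13 genes were chosen for it. Of the 11 that were higher in parotid Sox10-positive cells, Cyp26a1, of retinoic acid breakdown, was at 86.0 against 35.4 CPM in parotid and at 17.3 against 44.9 CPM in submandibular epithelium (ratio 0.386, 0.333 to 0.445). Ppp2r2b, a phosphatase subunit gene, was at 68.2 against 29.8 CPM and at 15.7 against 30.5 CPM (ratio 0.514). Nnat, the imprinted gene of neuronatin, was at 701 against 298 CPM and at 163 against 282 CPM (ratio 0.577).

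Spry2, the FGF feedback inhibitor gene, was at 147 against 203 CPM in submandibular epithelium (ratio 0.725), unlike its list fellows Etv4, Etv5, Dusp6 and Il17rd, whose ratios there were 1.68, 1.47, 1.40 and 1.29. Krt8 had a submandibular ratio of 0.794 and the matrix gene Smoc2 of 0.622. The ratios of the others were 0.679 for Apip, 0.770 for Slc9a3r1, 0.847 for Cndp2, 0.888 for Mpped2 and 0.894 for Spon2.

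The other 2 were lower in parotid Sox10-positive cells. Tfap2b was at 48.7 against 183 CPM in parotid and at 157 against 81.2 CPM in submandibular epithelium (ratio 1.93, 1.82 to 2.05). Cnih2 had a submandibular ratio of 1.18 (1.04 to 1.34).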

How the results depend on the processing

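The counts of 62 higher and 67 lower genes stayed within 1.5 times under 9 of 12 other ways of processing and 2 of the 3 added after the data were seen, and the 9 reversed no named gene that was called. When cells were called positive on their Sox10 UMIs after thinning to 3000 UMIs, 95 genes were higher, and a 10 CPM minimum gave 227 higher and 334 lower. The share of positive cells was 5.34% after thinning, 9.18% between the 25th and 75th percentile of UMIs, 13.8% with 1000 genes and 5% mitochondrial UMIs, and 12.1% among cells with an Epcam or Cdh1 UMI. Inside the cluster where at least 50% of cells were positive (65 against 60 cells), 13 genes were higher and 12 lower, of which Atp1b1 and Shisa2 (2.53-fold and 2.59-fold higher) and Cxcl14 (2.27-fold lower) were among the 129. There the ratio turned for Wnt7b (4.08), Lmo1 (1.19), Etv4 (0.825), Krt14 (1.24), Sfn (1.06), Sox9 (0.886), Il17rd (0.972), Nrarp (1.02), Ntf3 (1.12) and Igfbp4 (0.942), several from few UMIs. In both end bud-like clusters together 1 gene was higher and 0 lower. By construction these last comparisons hold fewer cells, all from clusters built on the same genes; the cause was not tested. No paired analysis was possible because the labels give 1 library per group. Depth limits the call of a negative cell: at 3000 UMIs per cell, 46.9% of the positive cells kept a Sox10 UMI.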

Other observations

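Among genes outside the lists, Ifitm3, an interferon-inducible membrane protein gene, was at 801 against 268 CPM (2.99-fold higher in Sox10-positive cells), and the homeobox gene Dbx2 at 72.0 against 14.2 CPM (5.08-fold). The guidance ligand gene Sema6a was at 112 against 27.4 CPM, and the annexin gene Anxa3 at 168 against 44.6 CPM. On the lower side, the metallothionein genes Mt1 (213 against 669 CPM) and Mt2 (126 against 385 CPM) were 3.14-fold and 3.05-fold lower. Anxa2 was at 130 against 725 CPM and S100a11, of a calcium-binding family, at 397 against 823 CPM. These genes were chosen after their values were seen.

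The immediate early genes Fos (244 against 449 CPM) and Jun (271 against 565 CPM), which dissociation can induce, were lower in Sox10-positive cells, and the heat shock gene Hspa1a was at 61.1 against 33.3 CPM. Xist was at 377 against 524 CPM in a pool whose embryos' sexes the labels do not give. The Y-linked genes Ddx3y (27.1 against 17.4 CPM, ratio interval 1.12 to 2.13) and Eif2s3y (22.2 against 18.1 CPM, 0.855 to 1.72) were also detected. RNA of both sexes was thus in the library, and the part of sex in the other differences was not tested. The 27 Sox10-positive cells of the parotid mesenchyme library were mixed: 12 held 3 or more neural crest and glial markers and 11 held 3 or more epithelial markers.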
